A study of Mus musculus with 6 samples.

Results

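The TRIM family was examined in mouse bone marrow cells that had received a mimic of the microRNA miR-142-3p. Its members were taken as the genes whose symbol in the platform annotation is Trim followed by a number, each read through 1 probe set, the one with the highest mean over all arrays. This gave 58 genes of the 18193 tested, drawn from 111 probe sets that carry a single TRIM symbol. Of these genes 31 had more than 1 probe set to choose from.

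TRIM proteins typically hold a RING finger, B-box zinc fingers and a coiled coil, in this order, though some members lack the RING finger. Most act as ubiquitin ligases, enzymes that tag other proteins with ubiquitin. A large branch of the family, which ends in a PRY-SPRY domain, takes part in defence against viruses: some members bind viral capsids or antibody-coated particles in the cytosol, and others tag the sensors of viral RNA and their adaptors. Interferon, the signal that infected cells send out, induces many genes of that branch in macrophages and other myeloid cells. Other members of the family work in chromatin, on microtubules or in muscle.

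All 6 samples were marrow cells of healthy C57BL/6 mice, transfected with an oligonucleotide at 100 nM by means of the reagent GeneSilencer. In 3 samples the oligonucleotide was the miR-142-3p mimic and in 3 it was a control oligonucleotide named CTRL. GM-CSF and IL-6 were added to both groups after 5 h and left for 4 days, a culture that gives myeloid-derived suppressor cells, immature cells of the myeloid line known for holding back T cells. Each sample was hybridised to its own Affymetrix MOE430 2.0 array. The labels give neither the age of the mice nor the sequence of either oligonucleotide. They also do not say that the samples of a group came from separate cultures or animals, so the p-values measure only how far these samples vary, which may be technical. The cells are a bulk mixture in which fewer cells of a type and less RNA per cell cannot be told apart.

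The natural microRNA that the mimic stands for is listed by RefSeq as mmu-miR-142a-3p, at chr11:87756903-87756925 on the plus strand of GRCm38.p6. It is shown because it is the agent that separates the groups, with the seed (bases 2 to 8, the stretch that pairs with target transcripts) in capitals.
mmu-miR-142a-3p: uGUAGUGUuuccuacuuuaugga

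Of the 58 genes 4 passed an adjusted p of 0.05 by limma (6.9%), against 2.76% of all genes tested. All 4 rose, against 1.17% of all genes, and 0 fell, against 1.59% of all genes. At an unadjusted p under 0.05, limma gave 11 TRIM genes higher and 3 lower, where all genes gave 7.99% and 9.06%. The 4 that rose were Trim12a, Trim12c, Trim21 and Trim30d, and all are among the 13 measured genes of a list of 17 interferon-linked and antiviral TRIM genes, which was drawn up with the rise of interferon genes in these data already known. Of these 13, 12 had a higher mean with the mimic, and the median log2 fold change was 0.50, where the median over all genes was 0.01. Of the other 45 TRIM genes 0 passed in either direction by limma (1 higher and 3 lower at an unadjusted p under 0.05), and their median was 0.01. Among genes with a mean log2 value of at least 3, the median was 0.21 over 23 TRIM genes and -0.02 over all 7662 genes of that level.

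The largest change was that of Trim12a, 1.93-fold, and log2 fold changes over the 58 genes ran from -0.50 to 0.95. In 15 TRIM genes no mimic array fell within the span of the controls, 13 of them higher and 2 lower, against 22.2% of all genes tested (11.0% higher and 11.1% lower). Of the 13 interferon-linked genes 10 were separated in this way, all of them higher with the mimic. Among genes with a mean log2 value of at least 3, 12 of the 23 TRIM genes were separated with the mimic higher, against 16.0% of all genes of that level. Among the 54 genes that did not pass, the 95% interval of the log2 fold change, not adjusted for the number of genes, lay within 1 of 0 for 53 and within 0.5 of 0 for 32.

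**Figure D1:**
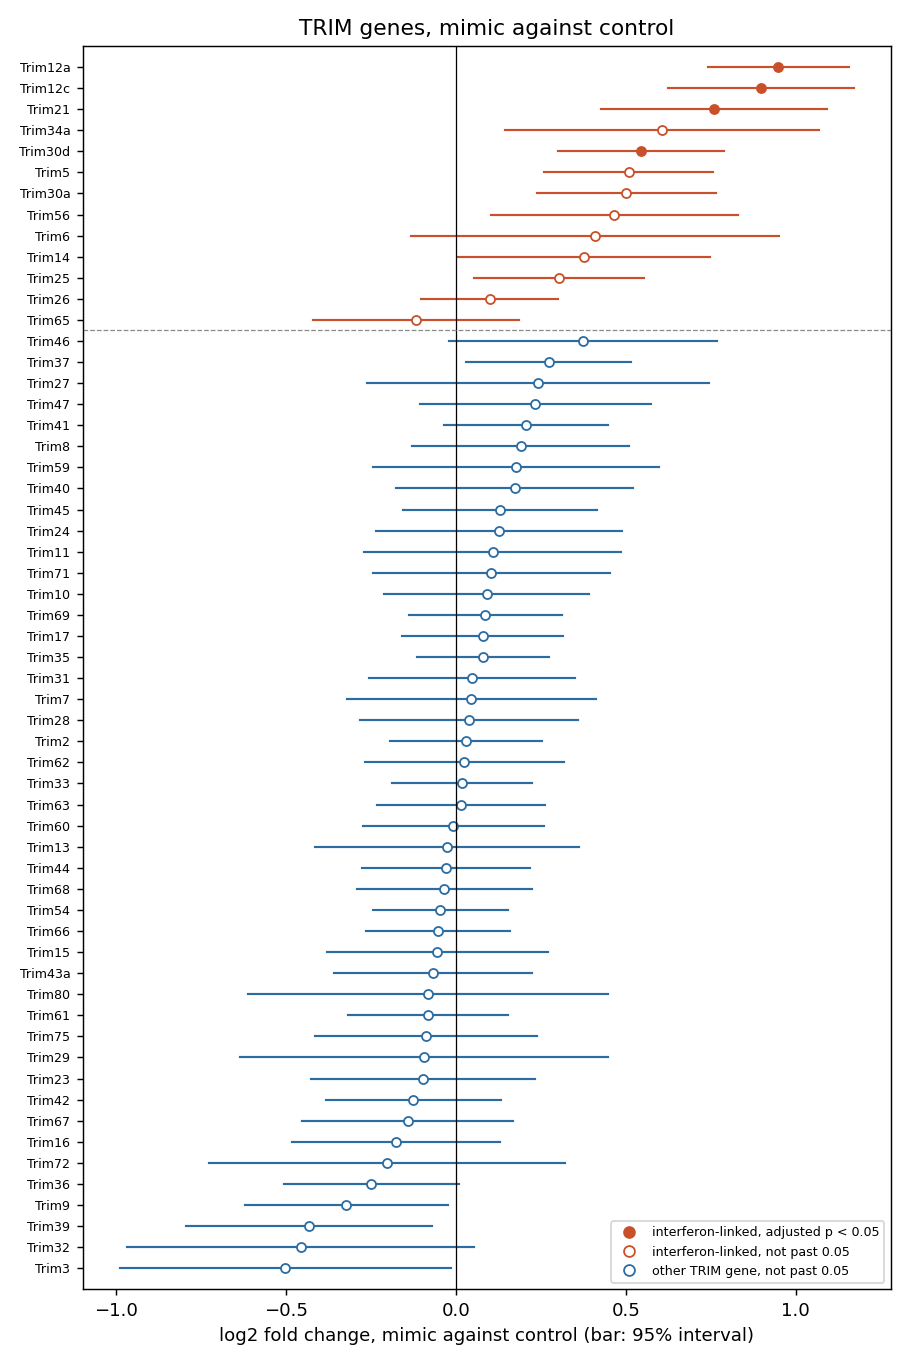
Log2 fold change of each of the 58 TRIM genes, mimic against control (horizontal axis), with the unadjusted 95% interval from limma as a bar; the interferon-linked genes stand above the dashed line. Filled points passed an adjusted p of 0.05: Trim12a, Trim12c, Trim21 and Trim30d. Of the 13 interferon-linked genes 12 lie to the right of 0, while the 45 others lie on both sides (23 higher, 22 lower).

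The promoters of the interferon-linked genes were set beside these values, since interferon acts on genes through the interferon-stimulated response element, a DNA element in the promoters of genes that interferon induces. RefSeq promoters of GRCm38.p6, which run from 250 bases before to 50 after each listed start site, were found for 47 of the 58 genes. Its core, written here as GAAA, any 2 bases and GAAA again, searched on both strands with overlapping matches allowed, was present in 9 of the 47 (19.1%) and in 3.99% of the 27025 genes of the promoter table. It was present in 8 of the 11 interferon-linked genes that have a promoter there and in 1 of 36 others (2.78%). All 4 genes that rose hold it, as do 32 of all 165 tested genes that rose and have a promoter there (19.4%). The interferon-linked list gathers genes linked to interferon, so a high share in it was partly set by how it was drawn up. Some of the windows are copies of each other, so these counts do not stand for separate elements. The windows below are 30 bases long, read on the strand that carries the core, with the core (or the stretch of a pair of overlapping cores) in capitals; they are shown to set the genes that rose beside the other interferon-linked genes that hold the core.
Trim12a: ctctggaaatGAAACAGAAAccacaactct
Trim5: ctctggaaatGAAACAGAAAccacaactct
Trim12c: agctggaaatGAAACAGAAAccacaactct
Trim30d: caggaactgaGAAAAAGAAActaaagaact
Trim30a: caggaactgaGAAAAAGAAActaaagaact
Trim21: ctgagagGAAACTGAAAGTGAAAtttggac
Trim34a: gcagagaaaaGAAACTGAAActccaaacca
Trim26: ggcccgaGAAAAGGAAAGTGAAAtcggaag

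The Trim12a and Trim5 windows are identical, and the Trim12c window differs from both at 2 of 30 bases. The Trim30d and Trim30a windows are identical too. In Trim12a the window is chr7:104315466-104315495 on the plus strand, in Trim5 chr7:104288136-104288165 and in Trim12c chr7:104353359-104353388, both also on the plus strand, which is opposite to these genes. The Trim30d window is chr7:104507871-104507900 and the Trim30a window chr7:104465210-104465239, both on the plus strand and opposite to the gene. A second listed start of Trim30a holds the same core at chr7:104446104-104446133. In Trim21 the window is chr7:102565447-102565476 on the minus strand, the strand of the gene, and holds a pair of overlapping cores. The Trim34a window is chr7:104244457-104244486 and the Trim26 window chr17:36836979-36837008, both on the minus strand and opposite to the gene. Trim2, a family member of the NHL branch, was the other gene with the core. A match describes the letters only, and binding was not measured here.

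Read against the arrays, the 9 genes with the core all had a higher mean with the mimic. Of the 9, 8 were separated between the groups, where 11.0% of all genes tested were separated with the mimic higher. Trim2 counted as higher at 0.03 ± 0.10 with a mean of 0.51, near the floor. Trim26 counted as separated at 0.10 ± 0.09 (limma adjusted p = 0.633). Among second probe sets of these genes, those of Trim12a, Trim26, Trim30a and Trim30d were lower in their means with the mimic. Those of Trim12c, Trim21 and Trim34a were higher. The median log2 fold change of the 9 was 0.54. That of the 38 TRIM genes whose promoter lacks these letters was 0.02, and 20 of the 38 were higher in their means. Of the 38, 5 were separated in either direction, against 22.2% of all genes tested. Over the whole table the core was present in 523 tested genes, of which 32 rose (6.12%). Of all 14368 tested genes with a promoter there 165 rose, and of all genes tested 1.17% rose.

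Trim12a and Trim12c, homologues of the retroviral restriction factor TRIM5, rose the most of the 58 genes. Trim12a (Entrez gene 76681) stood at 5.21, 5.18 and 5.35 in control arrays 1, 2 and 3 and at 6.19, 6.18 and 6.21 in mimic arrays 1, 2 and 3, all in deposited log2 values. The mimic arrays were tightly grouped and lay above every control array. The means were 5.25 ± 0.09 and 6.20 ± 0.01 (SD, n = 3), a log2 fold change of 0.95 ± 0.09 (SE, limma adjusted p = 0.00673). Trim12c (Entrez gene 319236), its close copy, stood at 4.90, 5.24 and 5.25 in control and at 6.00, 5.98 and 6.10 with the mimic. Again no control array reached a mimic array, and control array 1 was the lowest. The means were 5.13 ± 0.20 and 6.03 ± 0.06 (SD, n = 3), a 1.86-fold rise (log2 fold change 0.90 ± 0.12, limma adjusted p = 0.0136). The gene now named Trim5 in the mouse was dim and did not pass, at 2.05, 1.97 and 2.05 in control and 2.43, 2.72 and 2.46 with the mimic. These groups did not overlap either, with a log2 fold change of 0.51 ± 0.11 (limma adjusted p = 0.0533). Both Trim12a and Trim12c have a second probe set near the floor of the arrays, with a log2 fold change of -0.02 at a mean of 0.43 for Trim12a and of 0.20 at a mean of 0.61 for Trim12c. The copies are alike in sequence and the probe sequences were not used here, so how far the probe sets tell these genes apart is uncertain.

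Trim21 (Entrez gene 20821) encodes a cytosolic receptor for the constant part of antibodies, which sends antibody-coated virus to the proteasome. Its values were 4.32, 4.74 and 4.82 in control and 5.35, 5.49 and 5.33 with the mimic. All mimic arrays lay above all control arrays, and control array 1 was the lowest. The means were 4.63 ± 0.27 and 5.39 ± 0.09 (SD, n = 3), a 1.69-fold rise (log2 fold change 0.76 ± 0.14, limma adjusted p = 0.036). A dimmer probe set of Trim21, with a mean of 2.90, had a log2 fold change of 0.01 ± 0.20 (limma adjusted p = 0.988 in a fit of all probe sets, where the brighter one did not pass either, at 0.0618).

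In the Trim30 group, whose founder Trim30a restrains NF-kB signalling by removing the adaptors TAB2 and TAB3, Trim30d passed and Trim30a did not. Trim30d (Entrez gene 209387) stood at 6.32, 6.62 and 6.56 in control and at 7.03, 7.08 and 7.02 with the mimic. The mimic arrays were tightly grouped above the controls, with means of 6.50 ± 0.16 and 7.04 ± 0.03 (SD, n = 3) and a log2 fold change of 0.54 ± 0.11 (limma adjusted p = 0.0401). Trim30a (Entrez gene 20128) stood at 7.39, 7.70 and 7.74 in control and at 8.11, 8.16 and 8.07 with the mimic. Its groups did not overlap and its log2 fold change was 0.50 ± 0.11 (limma adjusted p = 0.0684), close in size to that of Trim30d. For both genes the probe sets disagreed in sign. The second probe set of Trim30a, with a mean of 6.25, had a log2 fold change of -0.13 ± 0.31, and that of Trim30d, with a mean of 2.58, had -0.11 ± 0.27. With the most variable probe set of each gene in place of the brightest, these were the values read for Trim30a and Trim30d. Tab2 and Tab3 themselves did not pass, with log2 fold changes of 0.30 ± 0.12 and -0.04 ± 0.13 (limma adjusted p = 0.265 and 0.921).

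**Figure D2:**
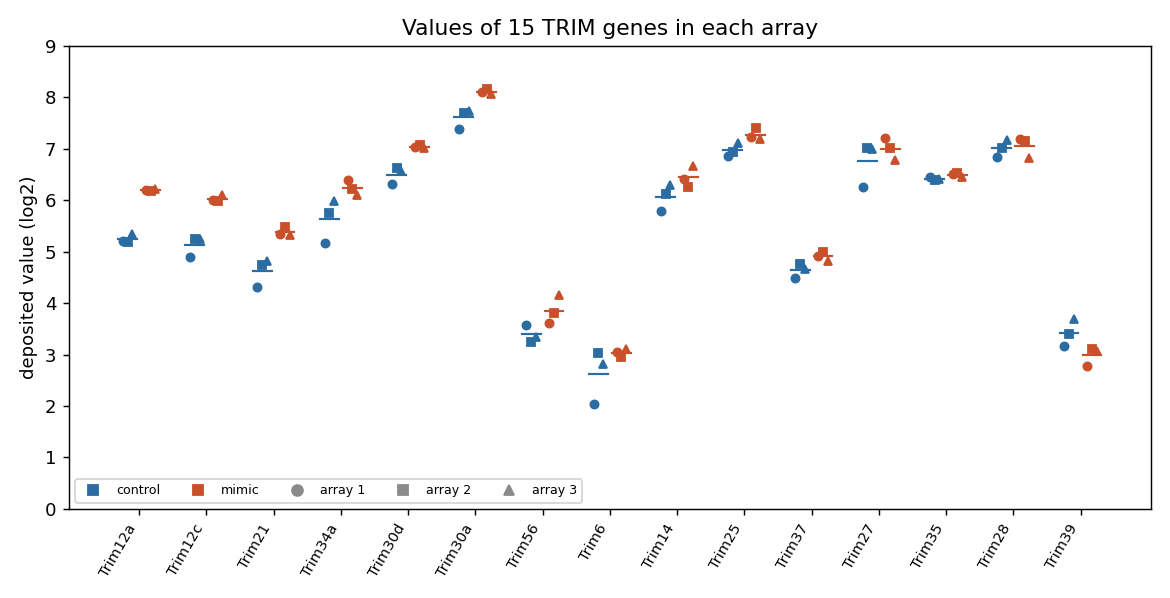
Deposited log2 value (vertical axis) of 15 TRIM genes in each of the 6 arrays, ordered by log2 fold change; circles, squares and triangles are arrays 1, 2 and 3, and the short line is the group mean. In Trim12a, Trim12c, Trim21, Trim30d, Trim30a and Trim34a every mimic array lies above every control array. Control array 1 is the lowest control in Trim12c, Trim21, Trim34a, Trim30d and Trim30a, but not in Trim12a.

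The remaining interferon-linked genes were higher in their means without passing, apart from Trim65. Trim34a, another homologue in the same stretch of the genome, stood at 5.17, 5.75 and 5.98 in control and at 6.39, 6.23 and 6.10 with the mimic. Its controls were widely spread and did not reach the mimic arrays (log2 fold change 0.61 ± 0.20, limma adjusted p = 0.172). Without control array 1 the difference was 0.38. Trim6, whose product makes free ubiquitin chains in interferon signalling, stood at 2.04, 3.04 and 2.81 in control and at 3.05, 2.96 and 3.10 with the mimic, so that the groups overlapped. Its log2 fold change was 0.41 ± 0.23 (limma adjusted p = 0.44), and it was 0.11 without control array 1 and 0.61 without control array 2.

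Trim25, Trim14 and Trim56 encode proteins that act in RNA and DNA sensing, and none of these 3 genes passed. Trim25, the ligase that activates the RNA sensor RIG-I, stood at 6.86, 6.93 and 7.11 in control and at 7.23, 7.40 and 7.19 with the mimic. The groups were separated by a narrow gap, and the log2 fold change was 0.30 ± 0.11 (limma adjusted p = 0.202). The 3 probe sets of Trim25 gave similar values, 0.30, 0.32 and 0.34, each separated between the groups and none past the threshold. Trim14, an adaptor of the mitochondrial antiviral protein MAVS, stood at 5.79, 6.12 and 6.29 in control and at 6.41, 6.25 and 6.67 with the mimic, and its groups overlapped (0.38 ± 0.16, limma adjusted p = 0.287), with a difference of 0.24 without control array 1. Trim56, which acts in cytosolic DNA sensing, stood at 3.58, 3.25 and 3.34 in control and at 3.61, 3.81 and 4.16 with the mimic (0.47 ± 0.16, limma adjusted p = 0.18). Its mimic arrays lay above the controls, the lowest of them barely so. The smallest differences of the list were those of Trim26, a ligase of IRF3, at 0.10 ± 0.09, and of the dim Trim65, a ligase of the RNA sensor MDA5, at -0.12 ± 0.13.

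A stretch of chromosome 7 holds 3 of the 4 genes that rose. In RefSeq's gene order 11 TRIM genes follow each other there with at most 3 other genes between neighbours, in the order Trim6, Trim34a, Trim5, Trim12a, Trim34b, Trim12c, Trim30b, Trim30c, Trim30a, Trim30d and the pseudogene Trim30e-ps1. The 7 that were tested all had a higher mean with the mimic. Of the 7, 6 were separated between the groups, where 11.0% of all genes were separated with the mimic higher. Of the 7, 3 passed, where 1.17% of all genes rose. Among all genes with a mean log2 value of at least 3 these shares were 16.0% and 2.31%. Trim21 lies on the same chromosome outside this run. Another run of 5 TRIM genes, on chromosome 17, holds Trim26, Trim15, Trim10, Trim40 and Trim31. It had 0 genes past the threshold and log2 fold changes between -0.06 and 0.17. All of them but Trim26 had means between 0.43 and 0.71, near the floor, where a change can hardly be seen. As 2.76% of all genes passed, 0 of 5 does not set this run apart. A run of 3 on chromosome 8, Trim75, Trim60 and Trim61, had 0 genes with a higher mean and 0 past the threshold. These genes were dim or near the floor too. Whether the probe sets of neighbouring genes match each other's transcripts was not tested.

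**Figure D3:**
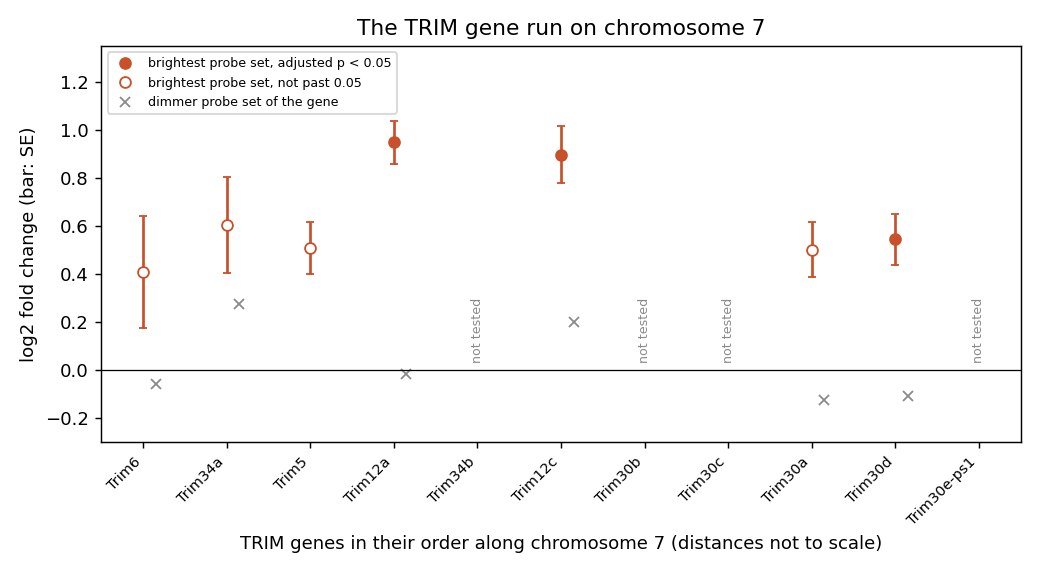
Log2 fold change with SE (vertical axis) of the TRIM genes that follow each other on chromosome 7, in gene order and not to scale. Circles are the brightest probe set of each gene, filled where the adjusted p is under 0.05, and crosses are dimmer probe sets of the same gene. The 7 circles lie between 0.41 and 0.95, while the crosses lie between -0.13 and 0.28.

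The interferon-response markers showed the same direction with larger changes. Of 23 measured markers outside the family 18 rose and 0 fell by limma, and all 23 had a higher mean, with a median log2 fold change of 1.11 against 0.50 in the interferon-linked TRIM genes. The 5 largest rises that passed were Cxcl10, Ifit2, Rsad2, Ifit3 and Cmpk2, between 2.10 and 2.34. In array 1 of the control group both lists were lowest. Relative to the control mean of each gene, the median of the interferon-linked TRIM genes ran -0.18, 0.09 and 0.12 across control arrays 1 to 3, while mimic arrays 1 to 3 had 0.42, 0.55 and 0.47. That of the markers was -0.35, 0.09 and 0.27 in control and 1.09, 1.11 and 1.11 with the mimic. Control array 1 was the lowest control in 8 of the 13 interferon-linked genes and in 28 of all 58 TRIM genes. That position was thus not confined to the interferon-linked genes, and the share over all genes tested is not given here. The median of the other 45 TRIM genes stayed between -0.03 and 0.01 in every array.

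Relatives and partners of the TRIM proteins were taken from lists as well. Of 6 measured relatives that carry other names, Pml rose (5.23 ± 0.22 in control and 5.88 ± 0.12 with the mimic, log2 fold change 0.65 ± 0.13, limma adjusted p = 0.0477). Its product is the TRIM protein that builds nuclear bodies and is induced by interferon. Mefv, the pyrin gene of the inflammasome, had -0.09 ± 0.10 (limma adjusted p = 0.734). Of 22 measured genes of RNA and DNA sensing and of interferon signalling 3 rose and 2 fell, with a median log2 fold change of -0.02. The RNA sensor gene Ifih1 (1.13 ± 0.20), Irf7, the interferon regulatory factor that amplifies the response (1.05 ± 0.18), and Fcgr1, the high-affinity antibody receptor gene (0.84 ± 0.11), rose. The interferon receptor gene Ifnar1 (-0.62 ± 0.10) and the kinase gene Jak1 (-0.75 ± 0.14) fell. Ddx58, the gene of RIG-I, which TRIM25 tags, had 0.70 ± 0.20 and did not pass (limma adjusted p = 0.128), and Mavs had -0.65 ± 0.15 (limma adjusted p = 0.0658).

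Markers of cell types were read as well, and they went in both directions. Of all genes tested 1.17% rose and 1.59% fell. Of 13 dendritic cell markers 8 fell, and their summed linear level was 1895 to 4072 in the control arrays and 807 to 834 in the mimic arrays. The dendritic cell marker genes Siglech, Xcr1, Zbtb46 and Cd209a had low values with and without the mimic, with means from 0.40 to 1.36. The labelled cells are myeloid, and all 12 neutrophil and all 12 macrophage markers measured had a mean above 1. Of the neutrophil markers 2 rose and 1 fell (summed linear level 14530 to 18430 in control and 20550 to 20900 with the mimic), and of the macrophage markers 2 rose and 3 fell (summed linear level 1649 to 1656 in control and 1388 to 1459 with the mimic). Of 6 mast cell and basophil markers 2 rose, Fcer1a and Cpa3 (summed linear level 309.1 to 568.8 in control and 715.1 to 796.2 with the mimic). Of 5 B cell markers 1 fell, and of 7 T and NK cell markers 1 rose and 1 fell. Of 6 erythroid markers 0 passed, and of 8 muscle and neuron markers, all with a mean under 1, 0 passed. The part of the cell mixture in the rise of the TRIM genes was not tested. Control array 1 was highest of the controls in the dendritic markers: their median, set against each control mean, was 0.53 there, -0.16 in control array 2 and -0.48 in control array 3.

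**Figure D4:**
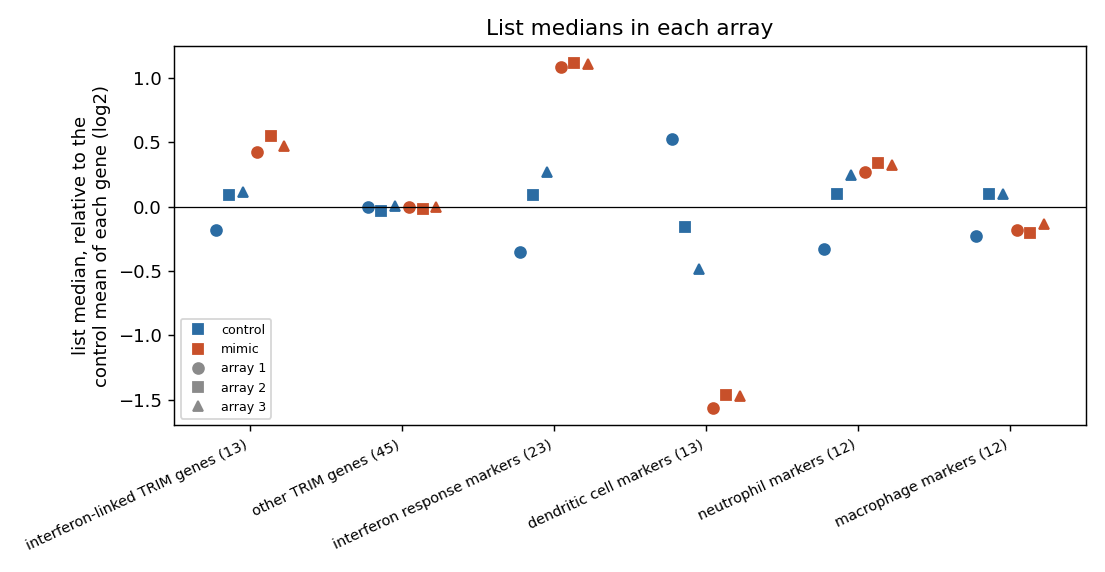
Median over the genes of each list, relative to the control mean of each gene (vertical axis, log2), in the 3 control and 3 mimic arrays. The interferon-linked TRIM genes lie between 0.42 and 0.55 in the mimic arrays and between -0.18 and 0.12 in the control arrays, and the other TRIM genes lie near 0 in all arrays.

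Outside the interferon-linked group, 13 TRIM genes had a mean log2 value of at least 3, where values are clear of the floor. None of the 13 passed, and their log2 fold changes lay between -0.43 and 0.27 (10 higher and 3 lower in their means). Trim28, the corepressor KAP1 that silences retroviral elements, stood at 6.83, 7.02 and 7.18 in control and at 7.18, 7.15 and 6.81 with the mimic. Its groups overlapped, and the 95% interval of its log2 fold change ran from -0.28 to 0.36. Of its relatives in chromatin, Trim33 had 0.02 ± 0.09 and Trim24 had 0.13 ± 0.16, and Trim66 was near the floor. Trim27, a ligase of endosomal sorting, stood at 6.26, 7.01 and 7.01 in control and at 7.21, 7.02 and 6.77 with the mimic. Its log2 fold change was 0.24 ± 0.22 (limma adjusted p = 0.644). Control array 1 was the array that stood apart, and without it the difference was -0.0096. The next brightest probe sets of Trim27 differed in sign, with 0.20 at a mean of 6.50 and -0.18 at a mean of 5.78. Trim35 stood at 6.45, 6.39 and 6.41 in control and at 6.51, 6.52 and 6.46 with the mimic. All mimic arrays lay just above the controls, with a difference of 0.08 ± 0.08 (limma adjusted p = 0.708), although its dimmer probe sets had -0.56 and -0.35.

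Trim39, a ligase of the cell cycle and of cell death, was lower in its mean, at 3.16, 3.40 and 3.69 in control and 2.78, 3.10 and 3.07 with the mimic. All its mimic arrays lay below its control arrays without passing (-0.43 ± 0.16, limma adjusted p = 0.208). Trim37, a ligase of peroxisomes and centrioles, stood at 4.49, 4.76 and 4.66 in control and at 4.92, 4.99 and 4.82 with the mimic (0.27 ± 0.11, limma adjusted p = 0.238). Its next brightest probe set had -0.29 ± 0.17, of the opposite sign. The other members of this level were Trim8, Trim11, Trim41, Trim44, the membrane-anchored Trim13 and Trim59, with log2 fold changes between -0.03 and 0.21.

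The remaining 32 TRIM genes outside the list were dim. Of these 13 had a mean between 1 and 3, namely Trim16, Trim17, Trim23, Trim29, Trim45, Trim47, Trim60, Trim62 and Trim68, Trim3 and Trim32 of the NHL branch, and Trim36 and Trim46 of the microtubule-binding branch. Trim3 had the largest difference among them, at 3.12, 2.79 and 2.27 in control and 2.26, 2.39 and 2.01 with the mimic, with overlapping groups (-0.50 ± 0.21, limma adjusted p = 0.28). A mean under 1, near the floor in both groups, was seen for 19 genes. They include the muscle genes Trim54, Trim63 and Trim72, the neuronal Trim9 and Trim67, Trim2 and Trim71 of the NHL branch, the erythroid Trim10, and Trim7, Trim15, Trim31, Trim40, Trim42, Trim43a, Trim61, Trim66, Trim69, Trim75 and Trim80. At that level 12 of the 19 had arrays with the same deposited value to 6 decimals, and their differences, between -0.32 and 0.17, say little about RNA.

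The calls rest on few arrays. With a single array left out, Trim12a passed in 3 of 6 fits, Trim12c and Trim21 in 2 and Trim30d in 0. The number of TRIM genes that rose was 3 without control array 1 or control array 3, 1 without mimic array 2 (Trim12a), and 0 with control array 2, with mimic array 1 or with mimic array 3 removed, where limma called 0 of all genes as well (10, 8 and 10 TRIM genes higher at an unadjusted p under 0.05). In these fits the log2 fold change lay between 0.92 and 0.998 for Trim12a, 0.78 and 0.95 for Trim12c, 0.61 and 0.86 for Trim21, and 0.45 and 0.60 for Trim30d. With all probe sets averaged per gene, Trim12a (0.47), Trim12c (0.55) and Trim5 (0.51) were called, and Trim21 and Trim30d were not.

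**Figure D5:**
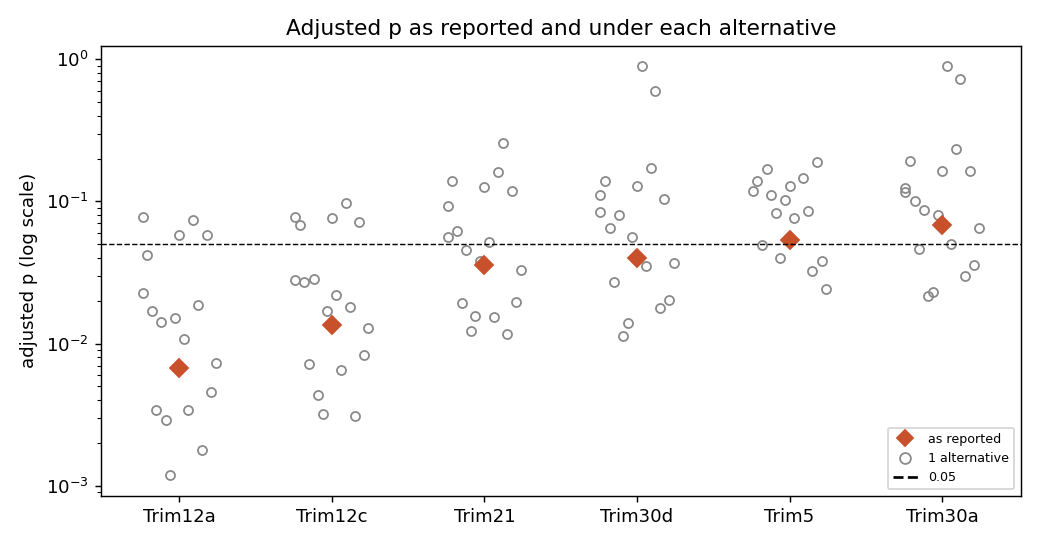
Adjusted p by limma (vertical axis, log scale) of 6 TRIM genes as reported (diamonds) and under each alternative way of processing (open circles); the dashed line is 0.05. Trim12a was past the line in 14 of 18 alternatives and Trim12c in 13, while Trim21 was in 9 and Trim30d in 7.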

How the data were processed

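The authors deposited 1 log2 value per probe set and array for 45101 probe sets. The submitters' processing notes list RMA and affy without version or role, and how the values were centred is not given. Values ran from -0.39 to 12.3, 52.6% of them lay below 1, and array medians were 0.84 to 0.92. The values were used as deposited.

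Platform symbols were updated to RefSeq names by gene identifier. Probe sets with 1 symbol numbered 34945, and those with several (932) were left out of gene tests. Groups follow the labelled treatment, arrays are numbered by title, and limma 3.58.1 in R 4.3.3 (lmFit, eBayes, two-sided, no covariate) compared 3 mimic with 3 control arrays, with Benjamini-Hochberg adjustment over 18193 genes. The script was tested on simulated data. No filter on low values was set. Precision is limited by the number of arrays: over all genes the SE had a median of 0.12.

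The members and lists were chosen with earlier results of these data known. Genes given array by array are those that passed, then the largest differences with a group mean of at least 3, up to 12, and the 8 with the highest mean, 15 in all. Trim5 and Trim3 were added after their values were seen. From other lists up to 5 that passed were named, and Mefv, Ddx58, Mavs, Tab2 and Tab3 were added for their roles, also after their values were seen. Promoters and the microRNA are from RefSeq (GRCm38.p6). Alternatives are in the closing section.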

Additional observations from a re-analysis of the deposited data

Results flagged for a closer look

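Of the 932 probe sets that carry more than 1 symbol, and so entered no gene test, 5 carry a TRIM symbol. In 2 of these 5 all 3 mimic arrays lay above all 3 control arrays, as in 11.0% of all genes tested. The probe set shared by Trim30b and the gene model Gm38525 stood at 1.85, 2.08 and 2.10 in control and at 3.15, 2.95 and 3.07 with the mimic, a log2 fold change of 1.05 ± 0.11 (limma adjusted p = 0.0174 in a fit of all probe sets). Trim30b lies in the chromosome 7 run between Trim12c and Trim30c, and the arrays do not tell which of the symbols gave the signal. The probe set shared by Trim17 and the histone gene H2aw stood at 5.00, 4.73 and 4.85 in control and at 5.01, 5.23 and 5.47 with the mimic (log2 fold change 0.38 ± 0.14, limma adjusted p = 0.262). The 2 probe sets of Trim17 alone were dim, 1 with means of 0.98 and 1.06 in control and with the mimic and the other with 0.09 and 0.23. The other 3 shared probe sets, 1 of Trim30a with Trim30d and 2 of Trim34a with Trim34b, had overlapping groups and log2 fold changes of -0.37, 0.39 and 0.31.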

How the results depend on the processing

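The number of TRIM genes that rose, 4 as reported, was between 0 and 3 with a single array left out, and 0 without both control array 1 and mimic array 3, a fit chosen after seeing the data. It was 2 with all probe sets fitted or with the most variable probe set, and 3 to 6 under the remaining alternatives other than the replicate block. None of the 18 alternatives gave a TRIM gene lower at an adjusted p under 0.05 by limma. With the replicate number as a block 2 rose, Trim12a and Trim12c. The numbers share no stated source, and the deviations of same-numbered arrays correlated at -0.10, 0.25 and -0.19, so the arrays were not treated as paired. The median log2 fold change, 0.05, was 0.21 and 0.44 with genes below a mean of 3 and 5 left out, 0.0092 with probe sets averaged, -0.0058 with the most variable probe set, 0.0796 with array weights and 0.0777 without both arrays. The separated genes, 15 of 58, became 8 of the 12 tested above a mean of 5 and 9 of 58 with probe sets averaged. Of the 58 they were 25 without both arrays and 17 to 22 without 1 array. Groups with fewer arrays are separated more easily, and the matching shares over all genes are not given here, so these counts are not comparable with the 15. With 1 array left out, Trim27 ranged from -0.0096 (control array 1 out) to 0.369 and Trim28 from -0.0509 (control array 1 out) to 0.158, also negative with the first or second mimic array out (-0.0287 and -0.0125). Signs turned for Trim35 (-0.28) and Trim37 (-0.0183) with probe sets averaged, and with the most variable probe set for Trim30a (-0.13), Trim30d (-0.11), Trim35 (-0.56) and Trim37 (-0.29). The causes were not tested. Dim probe sets, under a mean of 3, carry little signal over the floor. Of the most variable probe sets that turned sign, those of Trim30d (mean 2.58) and Trim35 (mean 2.60) were dim. Those of Trim30a (mean 6.25) and Trim37 (mean 4.46) were not.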
